A study of Mus musculus with 4 samples.

Results

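Socs3, Bcl3 and 5 further genes of the axis that runs from cytokine receptors to the transcription factor STAT3 (Stat3, Il6ra, Il6st, Il4ra and Cish) were followed in classical monocytes of young and old mice. The members were matched by gene symbol, and all 7 were found once among the 27998 genes of each count table. They had been chosen by values of these same data, namely their difference between old and young mice and the share of cells in which they were detected, so those values are given below as a description and carry no p value. Monocytes had been sorted as Ly6G- CD11b+ CD115+ Ly6C-high cells from the bone marrow of wild-type C57BL/6 mice, 5 young and 5 old of each sex, after the marrow cells of each mouse had received their own hashtag antibody. Young mice were 14 weeks (males) or 15 weeks (females) of age and old mice 27 or 26.5 months, and the labels name no treatment and no altered gene. The 10 mice of a sex were pooled into 1 10x Genomics library, so that a mouse is the replicate within a pool while sex and library cannot be told apart, and the levels of the male and female pools are not compared.

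SOCS3 is an inhibitor of cytokine signalling that is made in response to STAT3: it binds the shared receptor chain gp130 (the product of Il6st) and the attached JAK kinases, and so shuts off the signal that induced it. IL-6 binds its own receptor chain (Il6ra) and gp130, JAK kinases then phosphorylate STAT3, and STAT3 enters the nucleus and binds DNA. CISH is a related inhibitor known for acting on STAT5, Il4ra encodes the receptor chain for IL-4 and IL-13 that signals through STAT6, and BCL3 is an unusual member of the IkB family that works in the nucleus with the p50 and p52 subunits of NF-kB. In myeloid cells Socs3 is a commonly used readout of recent cytokine signalling.

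STAT proteins bind palindromes of the form TTCNNNGAA, and these letters are shown in capitals where they occur in the promoters of the members. The promoters were those of RefSeq (GRCm38.p6), from 250 bases before to 50 bases after each gene's start, and all 7 members had an entry. The Socs3 promoter held 1 match, 154 to 146 bases before the RefSeq start. The stretch around it, on the minus strand, lies at chr11:117969482-117969550, which is 296 bases or more before the start of the coding transcript of Socs3 in the GENCODE annotation of GRCm38 and inside an intron of a transcript of the gene that is annotated without a coding sequence. The searched window ended before that coding transcript starts. The bases directly upstream of the coding transcript were therefore not searched, and other matches there are not excluded. Cish held 2 matches, in the first 20 bases after its RefSeq start, shown on the plus strand at chr9:107296654-107296683. The gene begins further upstream in the GENCODE annotation, at chr9:107296026.
Socs3: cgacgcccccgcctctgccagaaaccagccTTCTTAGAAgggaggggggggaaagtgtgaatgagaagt
Cish: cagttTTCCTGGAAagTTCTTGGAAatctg
Of the 32851 mouse promoters of the same length, 8.30% held this motif on either strand. The promoters of Bcl3, Stat3, Il6ra, Il6st and Il4ra held no match in this window. The consensus site of NF-kB, searched on both strands, was found in 8.46% of promoters. Among the members it was found in Bcl3 at bases 3 to 12 and in Il4ra at bases 21 to 30 after the RefSeq start. Both genes begin further upstream in the GENCODE annotation. The Bcl3 match is shown in capitals, on the minus strand at chr7:19822734-19822763.
Bcl3: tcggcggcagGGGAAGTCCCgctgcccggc
None of these matches was tested as a binding site.

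On GRCm38, Socs3 (ENSMUSG00000053113) lies at chr11:117966079-117970047 on the minus strand and has at most 2 exons in a transcript, and no other annotated gene overlaps it. Bcl3 (ENSMUSG00000053175) lies at chr7:19808462-19822770, also on the minus strand, and 2 predicted genes of the opposite strand overlap it. Stat3 (chr11:100885098-100939540, minus strand) overlaps the end of Stat5a on the opposite strand. Il4ra lies at chr7:125552120-125579474, Il6st at chr13:112464070-112510086 and Cish at chr9:107296026-107302784 on the plus strand, and Il6ra lies at chr3:89864059-89913196 on the minus strand. All 7 are protein-coding genes.

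After assignment of cells to mice, 1227 male cells (49 to 206 per mouse) and 6636 female cells (239 to 1710 per mouse) were used. Counts of unique molecular identifiers (UMIs) summed to between 330586 and 1108320 per male mouse and between 2720012 and 18832388 per female mouse. Cells of old mice were deeper, with median UMIs per cell of 4489.5 to 8844 against 3805.5 to 4455.5 in males and 9708 to 13262.5 against 8281 to 8943 in females, so shares of positive cells are also given at a common depth. The monocyte genes (Lyz2, Ly6c2, Ccr2, Csf1r and others) summed to between 15917 and 37702 CPM per mouse, where CPM is the UMI count scaled to the total UMIs of the mouse. Most of this sum was Lyz2, at a mean of 30683 CPM in young males, where Ly6c2 was at 2520 CPM. Genes of T or NK cells summed to at most 47.4 CPM and those of B cells to at most 37.5 CPM. Genes of neutrophils reached 4357 CPM in old male 4 and 3901 CPM in young male 2, and were at or under 1192 CPM in every female mouse, and genes of basophils or mast cells reached 577 CPM in males. No cell type known to lack these genes was present, so the share of positive cells that free RNA could give was not measured. In summed counts of sorted cells, fewer cells that express a gene and less RNA per cell cannot be told apart. Levels and shares of positive cells both follow, but for a sparse gene the share largely restates the level and does not separate these readings.

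Socs3 differed most between old and young females. It was at 18.6, 9.56, 10.7, 19.8 and 14.6 CPM in old females 1 to 5 and at 2.59, 3.19, 2.21, 3.24 and 3.02 CPM in young females 1 to 5. The 5 old females all exceeded the young females, and they varied more among themselves than the young mice did. The means were 14.6 ± 4.58 and 2.85 ± 0.441 CPM (SD, n = 5 each), resting on 575 and 125 UMIs, and the fitted log2 fold change was 2.31 (SE 0.22). In males Socs3 was too sparse to pass the filter on low counts. Old males 1 to 5 had 2, 4, 7, 0 and 0 UMIs and young males 1 to 5 had 4, 1, 1, 2 and 1, or means of 3.53 ± 4.29 and 2.43 ± 1.33 CPM (SD, n = 5 each), and the groups overlapped completely. The 0 counts in old males 4 and 5 come from 49 and 56 cells and allow a share of positive cells of up to 6.12% and 5.36%, counting error only. With no count filter the fitted log2 fold change in males was 0.60 (SE 0.67), on 13 UMIs in all old and 9 in all young males.

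The share of cells with a Socs3 UMI moved in the same way. In old females 16.7%, 7.33%, 10.3%, 16.4% and 12.4% of cells were positive and in young females 2.64%, 2.94%, 2.51%, 2.81% and 2.88%, with means of 12.6% ± 4.02 and 2.76% ± 0.178 (SD, n = 5 each). Cells with at least 2000 UMIs were then thinned to 2000 UMIs and shallower cells were left out. The shares were 3.23% ± 1.22 in old and 0.803% ± 0.401 in young females, and the lowest old mouse (2.06%) remained above the highest young mouse (1.23%). Cells with 2 or more Socs3 UMIs made up 3.51% ± 1.51 of the cells of old and 0.334% ± 0.192 of those of young females. A Socs3 UMI was thus detected in more cells of old females at equal depth, which at such low counts largely restates the level. Most cells of either age held no Socs3 UMI.

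Bcl3 was higher in old mice of both pools. In females it was at 34.6, 44.8, 52.5, 45.3 and 36.5 CPM in old and at 21.8, 16.3, 16.2, 23.9 and 23.5 CPM in young mice, with means of 42.7 ± 7.26 and 20.4 ± 3.83 (SD, n = 5 each) and a log2 fold change of 1.03 (SE 0.12). In males it was at 36.1, 41.1, 32.1, 32.7 and 18.1 CPM in old and at 12.01, 15.7, 17.5, 6.54 and 14.8 CPM in young mice, with means of 32.0 ± 8.53 and 13.3 ± 4.26 (SD, n = 5 each) and a log2 fold change of 1.32 (SE 0.24). In both pools every old mouse lay above every young mouse, although old male 5, with 6 UMIs, lay just above the highest young male. The male values rest on 111 and 47 UMIs and the female values on 1720 and 912.

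Of all cells, 38.5% ± 3.16 held a Bcl3 UMI in old and 19.3% ± 2.92 in young females, and 19.8% ± 7.22 in old and 6.27% ± 2.02 in young males (SD, n = 5 each). At 2000 UMIs per cell the shares were 8.91% ± 2.15 and 4.27% ± 1.23 in females and 6.84% ± 1.84 and 3.16% ± 0.950 in males. Shallower cells were left out here, so that 117 of the 127 cells of young male 4 were used. The thinned shares of old and young females did not overlap, and in males old male 5 (3.70%) fell within the range of the young mice, which reached 4.35%. At their own depth, the male shares also overlapped when only cells that the hashtag caller HTODemux named singlets were used. The lowest old male was then at 10.3% and the highest young male at 10.6%. Neutrophil genes also varied among the males: their sum had a median of 1649 CPM in old and 28.4 CPM in young males and ranged from 13.2 to 4357 CPM over all 10. After the cells with 5 or more neutrophil UMIs were left out, the log2 fold change of Bcl3 in males was again 1.32 (SE 0.24). Only 6 of 526 old and 4 of 701 young male cells were left out, and the neutrophil sum of the remaining cells was not measured. The part of neutrophil RNA in the Bcl3 difference was not tested.

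**Figure D1:**
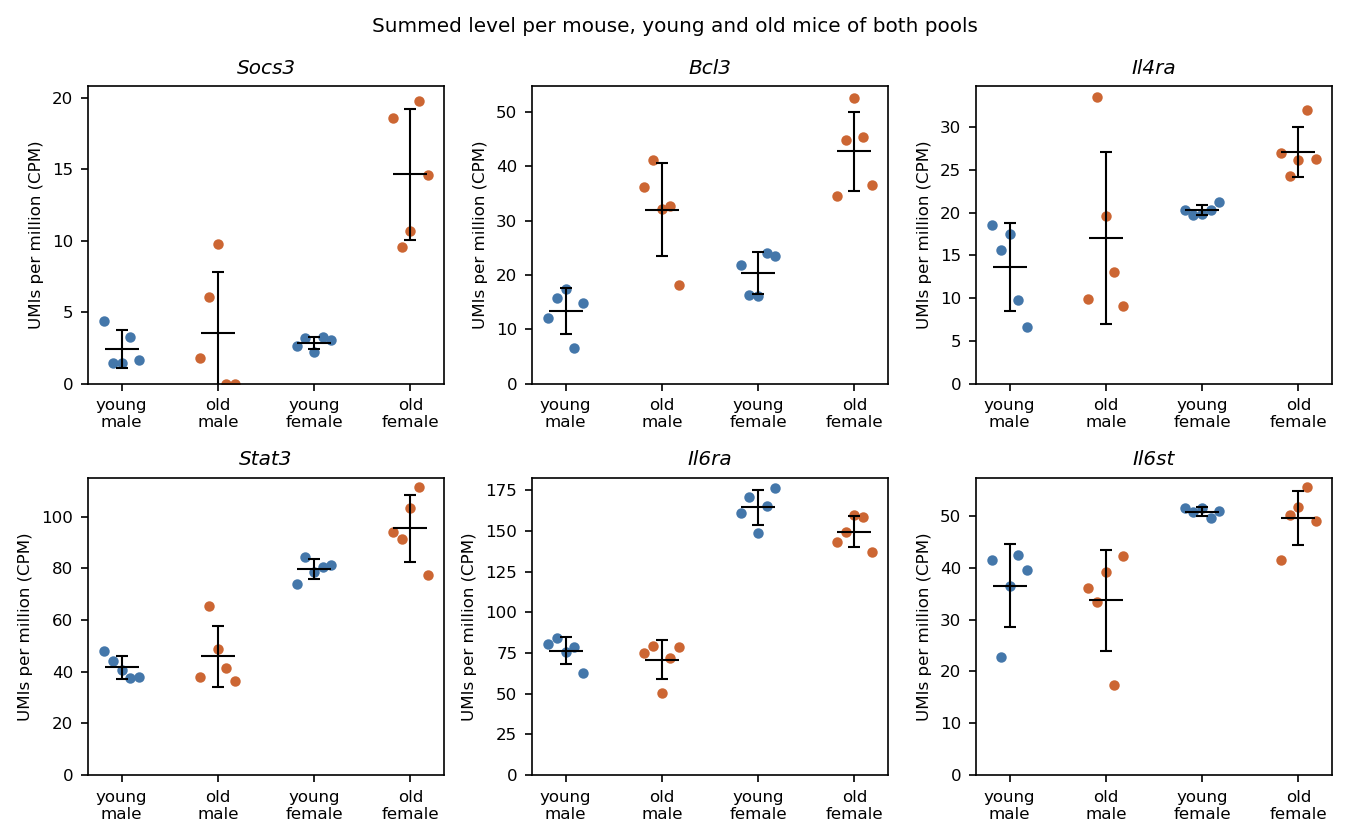
Summed level per mouse of 6 members, in CPM (vertical axes, each starting at 0), for young and old mice of the male and female pools. Points are mice, long bars means and whiskers SD over 5 mice. Socs3 of the old females sits between 9.56 and 19.8 CPM, above all young females, and Bcl3 of old mice lies above that of young mice in both pools.

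**Figure D2:**
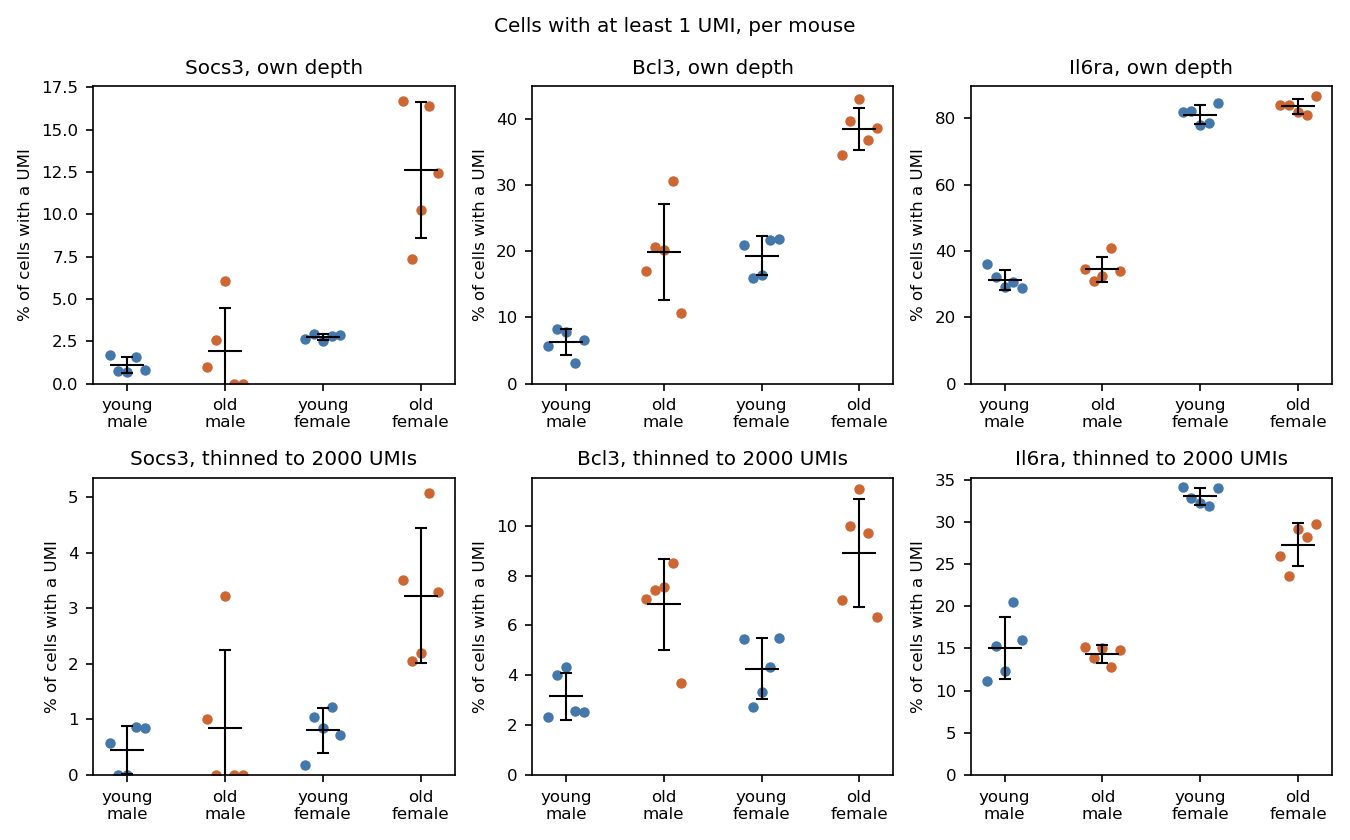
Share of cells with at least 1 UMI per mouse (vertical axes, in %), at the depth of each cell (top) and after thinning to 2000 UMIs, with shallower cells left out (bottom). Points are mice, long bars means and whiskers SD over 5 mice. Socs3 and Bcl3 keep the order of the female age groups after thinning, while Il6ra, overlapping between the ages at the top, is lower in every old female at the bottom.

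The signal transducer itself and the receptor chains differed less. Stat3 was at 94.1, 91.4, 103, 111 and 77.3 CPM in old and at 74.0, 84.5, 78.7, 80.4 and 81.3 CPM in young females, so 4 of 5 old mice lay above the highest young mouse and old female 5 did not. Its log2 fold change was 0.27 (SE 0.08) in females and 0.14 (SE 0.18) in males, where the means were 46.0 ± 11.9 and 41.7 ± 4.42 CPM (SD, n = 5 each) and the groups overlapped. Il4ra was at 27.0, 24.2, 26.1, 32.0 and 26.3 CPM in old and at 20.3, 19.7, 19.9, 20.3 and 21.3 CPM in young females. Here too the lowest old female exceeded the highest young female, with a log2 fold change of 0.44 (SE 0.08). In males Il4ra ranged from 9.07 to 33.5 CPM in old and from 6.59 to 18.6 CPM in young mice, with a log2 fold change of 0.28 (SE 0.37), and old male 2 alone reached over 20 CPM.

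Il6ra, the chain that binds IL-6, was at 150 ± 9.79 CPM in old and 164 ± 10.6 CPM in young females and at 71.0 ± 11.9 and 76.3 ± 8.26 CPM in males (SD, n = 5 each), with log2 fold changes of -0.13 (SE 0.05) and -0.13 (SE 0.15). The age groups overlapped in both pools. For Il6ra the depth of the cells set the direction of the detection: 83.6% ± 2.22 of cells of old and 81.0% ± 2.85 of young females were positive at their own depth, but 27.3% ± 2.55 and 33.0% ± 1.03 after thinning to 2000 UMIs, when all old females (23.5% to 29.7%) lay below all young females (31.9% to 34.1%). Il6st was at 49.6 ± 5.15 CPM in old and 50.8 ± 0.815 CPM in young females and at 33.7 ± 9.68 and 36.5 ± 8.05 CPM in males (SD, n = 5 each), and the groups overlapped. Cish was near the limit of detection, with 38 UMIs in all old and 33 in all young females and 2 UMIs in each age group of the males.

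Over all genes, edgeR called 347 of 10053 genes by age in females (3.45%) and 0 of 5656 in males (0%, with 618 genes at an unadjusted p under 0.05 and 22 called by DESeq2). Among the members tested, Socs3, Bcl3 and Il4ra (3 of 6) were called higher in old females and 0 of 5 were called in males. Because the members were selected on this very contrast, these counts say how they rank against the cutoff and nothing more. The sex by age interaction was called for 2 of 8846 genes (0.0226%), neither a member, and that of Socs3 was 1.68 (SE 0.90) on the log2 scale. A difference in age effect between the pools was therefore not called for any member. This term uses the same old and young values by which the members were chosen, so for them it too is a description. For Socs3 its male side rests on 13 UMIs in old and 9 in young mice, so the missing call says little.

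The other genes of the pathway and a list of immediate early genes were tested by age, from lists of 104 genes that hold no member. These lists were chosen with earlier results of these data known, so their share of calls is a description and no test of the pathway. Of the 82 list genes with enough counts in females, 21 were called, 10 higher and 11 lower in old mice, beside 3.45% of all genes. Among these 21, 11 belonged to the immediate early list (17 tested), 10 of them lower. Of the 59 list genes tested in males 0 were called by edgeR (18 at an unadjusted p under 0.05), while DESeq2 called 3, the immediate early genes Fos, Jun and Dusp1, all lower in old males. No list gene was called for the interaction, of 77 tested. The median log2 fold change of all genes tested was -0.0027 in females.

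Genes of 3 of the 5 lists of kinases, ligands and receptors were called in females. These were the gp130 family, the IL-4 and IL-13 list and the STAT5 receptors, of which only the first is a list of STAT3 signalling. None of the 4 JAK kinases was called, and Jak1, the gene of this list with the largest mean CPM, was at 94.1 ± 8.72 CPM in old and 91.4 ± 4.78 CPM in young females (SD, n = 5 each). All 4 had a log2 fold change above 0. Jak2 (0.29, SE 0.08, edgeR adjusted p = 0.075) and Jak3 (0.46, SE 0.13, edgeR adjusted p = 0.077) are named here because of their values. Of 5 tested gp130 family ligands and receptors, 1 fell: Ebi3, a subunit of IL-27 and IL-35, was at 27.2 to 31.8 CPM in old and at 39.7 to 43.1 CPM in young females (log2 fold change -0.48, SE 0.06, edgeR adjusted p = 0.00027). None of 5 other receptors and ligands that use STAT3 was called, and Il10rb, a chain of the IL-10 receptor, was at 54.0 ± 4.55 and 60.3 ± 2.09 CPM (SD, n = 5 each). The common gamma chain Il2rg, which pairs with the product of Il4ra in the type I IL-4 receptor, rose, from 15.4 to 18.5 CPM in young to 28.2 to 54.9 CPM in old females (log2 fold change 1.07, SE 0.17, edgeR adjusted p = 0.0023). It was the only called gene of the 2 tested in the IL-4 and IL-13 list. Csf2rb, the shared chain of the GM-CSF, IL-3 and IL-5 receptors, rose as well (0.41, SE 0.06), as 1 of 4 tested STAT5 receptor genes.

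No other SOCS gene was called (0 of 5). Socs1, an inhibitor of JAK kinases that is named here because of its values, came close, at 10.5 CPM in old and 4.93 CPM in young females on average (log2 fold change 0.97, SE 0.26, edgeR adjusted p = 0.051), and Socs6, the gene of this list with the largest mean CPM, was at 37.9 ± 2.08 CPM in old and 41.1 ± 3.86 CPM in young females (SD, n = 5 each). Of 8 PIAS and phosphatase genes 1 was called: Ptpn1, whose product PTP1B removes phosphate from JAK kinases, rose from 254 to 270 CPM in young to 277 to 410 CPM in old females (0.38, SE 0.08, edgeR adjusted p = 0.013).

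Downstream, 5 of 14 tested STAT3 target genes were called in females, 4 higher and 1 lower. Lrg1, a secreted glycoprotein of the acute-phase response, had the largest of these values. It was at 3.72, 4.68, 4.93, 2.09 and 8.33 CPM in old and at 0.458, 0.563, 1.84, 0.850 and 0.880 CPM in young females (log2 fold change 2.47, SE 0.39, edgeR adjusted p = 0.0028), on 20 to 56 UMIs per old and 3 to 16 per young mouse. The kinase gene Pim1 rose from 101 ± 11.1 to 165 ± 32.1 CPM (SD, n = 5 each), and old female 5, at 118 CPM, lay just below the highest young mouse. Hif1a, the hypoxia response factor, rose by 0.58 (SE 0.10) and Cebpb, a transcription factor of monocyte differentiation, by 0.27 (SE 0.06) on the log2 scale. The gene of the list that fell was Fos, which is also an immediate early gene. Over the 14 tested genes, 12 had a log2 fold change above 0 and the median was 0.15, while in males 4 of 9 were above 0 and the median was -0.04. 1 gene of this list was not analysed here.

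Among 14 NF-kB and IkB genes, which belong beside Bcl3, only Nfkbia was called in females. Nfkbia encodes IkB-alpha, the inhibitor that NF-kB itself induces, and was at 161, 135, 174, 198 and 198 CPM in old and at 92.3, 92.7, 94.1, 108 and 123 CPM in young mice (log2 fold change 0.77, SE 0.10, edgeR adjusted p = 0.00090). Old and young females did not overlap.

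Immediate early genes, which are switched on within minutes by many signals and by tissue handling, went mainly the other way. Of 17 tested in females 11 were called, 10 lower (Fos, Fosb, Jun, Jund, Ier5, Btg2, Zfp36, Dusp1, Klf2 and Klf4) and 1 higher (Ier3). Jun was at 136, 129, 128, 131 and 97.7 CPM in old and at 229, 268, 242, 212 and 256 CPM in young females (log2 fold change -0.95, SE 0.08, edgeR adjusted p = 1.5e-05). Ier3, a stress-inducible gene that NF-kB is known to activate, was at 13.9 to 19.9 CPM in old and 5.88 to 9.31 CPM in young females (1.12, SE 0.13, edgeR adjusted p = 0.00026). The sum of the list lay at 1924 to 2371 CPM in old and at 2743 to 3114 CPM in young females, and at 2210 to 2692 against 2867 to 3453 CPM in males, without overlap in either pool. Socs3 was thus higher in the same old females in which this list was lower.

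**Figure D3:**
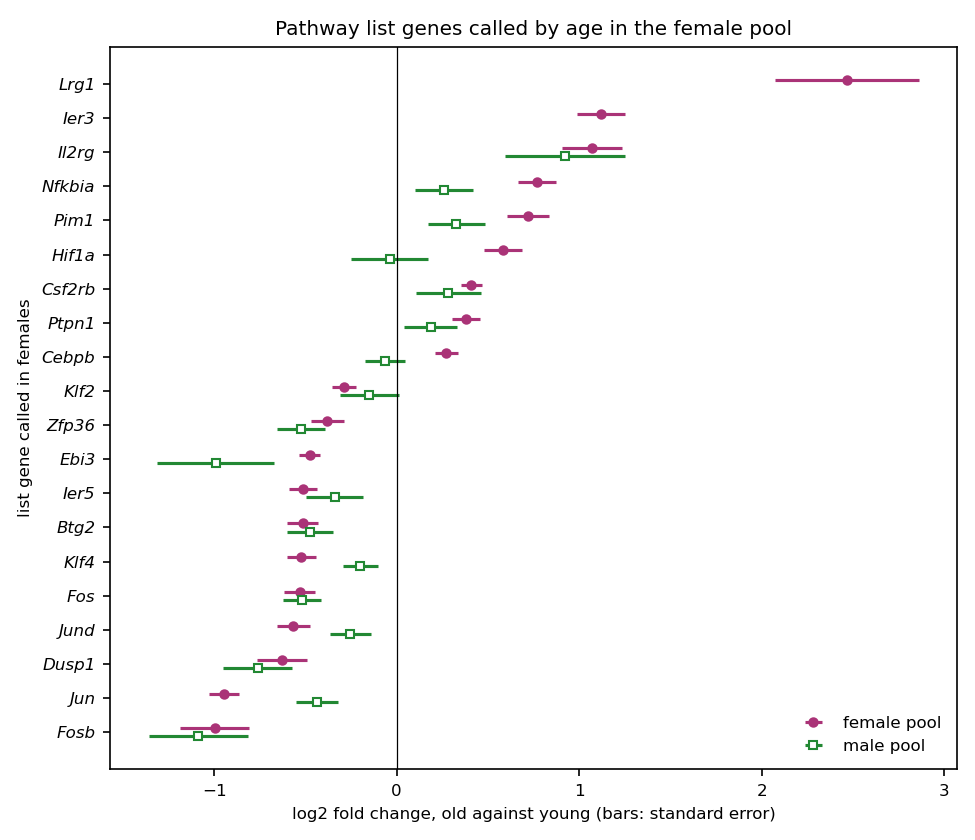
Log2 fold change, old against young, with its standard error (horizontal axis) of 20 of the 21 list genes called in females (vertical axis), in the female pool (filled circles) and in the male pool (open squares). Lrg1 and Ier3 were not tested in males. Lrg1 (2.47) lies farthest to the right and Fosb (-0.997) farthest to the left for the female pool, and no male value was called by edgeR.

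Which cells hold the members was asked within mice, a comparison that does not use age. In each mouse the 20% of cells with the highest share of UMIs in a marker list were set against its other 80%, on log2(CPM + 10), and cells with a Bcl3 or Socs3 UMI against cells without. Differences were tested with a two-sided exact sign-flip permutation test over the mice of a pool, for which the smallest p with 10 mice is 0.00195, and adjusted over 130 comparisons. The lists were the genes of neutrophil-like monocytes (NeuMo, such as Mpo and Elane) and of dendritic-cell-like monocytes (DCMo, such as Cd209a and the class II genes), G2/M genes, Apoe with its companions, genes of mature monocytes, interferon-stimulated genes, immediate early genes and NF-kB genes. The most abundant genes of a list weigh most in its share, so a class name stands for the list and not for a sorted cell type. In old females the mature list held Lyz2 at 22868 CPM, and the DCMo list held Cd74 at 1938 CPM but Cd209a at 19.9 CPM. In all, 52 comparisons passed, 43 of 68 in females and 9 of 62 in males, and of these 52, 36 were higher and 16 lower in the class.

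In the females Socs3 was higher in the Apoe-high class than in the other cells of the same mouse in 10 of 10 mice (26.8 against 6.32 CPM on average, log2 difference 1.03 ± 0.50 SD, n = 10, exact permutation, adjusted p = 0.0071). The same direction was found in 10 of 10 mice in the DCMo class (21.0 against 6.77 CPM), the mature class (21.0 against 6.97 CPM) and the NF-kB class (21.8 against 6.74 CPM), and in 9 of 10 in the interferon and immediate early gene classes. Socs3 was lower in the NeuMo class (2.64 against 11.8 CPM) and in the G2/M class (3.84 against 10.7 CPM), each in 10 of 10 mice. These classes overlap: 43.3% of the cells of the immediate early gene class were also in the Apoe-high class, and 25.4% of those of the NeuMo class in the G2/M class. As each class is 20% of every mouse's cells, unrelated classes would share about 20%, and the second overlap is near that. The classes differed in depth as well, with a median of 19823 UMIs per cell in the NeuMo class against 8444 in the other cells, and of 7145 in the Apoe-high class against 10904. Counted per cell, all 8 differences of Socs3 in females kept their direction, with 0.0580 UMIs in NeuMo cells against 0.131 in the others and 0.215 in Apoe-high cells against 0.0913. After thinning to 2000 UMIs the NeuMo difference of Socs3 was again past the threshold (-0.78 ± 0.56 SD, 10 mice, exact permutation, adjusted p = 0.019) and the other 7 were not. In males 1 of 9 classes passed for Socs3, G2/M, in which no Socs3 UMI was found, against 4.05 CPM outside it.

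For the other members, a difference in CPM often went with one in depth. Of the 52 comparisons that passed, 25 had the opposite direction in UMIs per cell, all in females, among them Il6ra in the Apoe-high class (241 against 146 CPM, but 1.78 against 1.99 UMIs per cell) and Bcl3 in the NeuMo class (22.1 against 36.2 CPM, but 0.468 against 0.388). These differences are in the share of a cell's UMIs, not in UMIs per cell. At a common depth of 2000 UMIs, 16 of 124 comparisons passed, 6 of them for the NeuMo class (Socs3, Bcl3, Stat3, Il6ra and Il4ra in females and Il6ra in males).

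Stat3 and Il6ra had the largest differences for the NeuMo class. In females Stat3 was at 42.9 against 110 CPM and Il6ra at 82.9 against 195 CPM, lower in the class in 10 of 10 mice (log2 difference -1.18 ± 0.10 and -1.14 ± 0.09 SD, n = 10, exact permutation, adjusted p = 0.0071 for both). In males Stat3 was at 25.2 against 52.2 CPM, lower in 9 of 10 mice, and Il6ra at 40.6 against 88.4 CPM, lower in 10 of 10. Per cell the gap was smaller, with 0.896 Stat3 UMIs in NeuMo cells against 1.15 in the others and 1.72 Il6ra UMIs against 2.01 in females. In the immediate early gene class Stat3 was at 147 against 79.1 CPM but at 1.15 against 1.08 UMIs per cell. Il6ra was also higher in the Apoe-high, DCMo, mature and interferon classes of both pools in CPM. In UMIs per cell these 4 differences kept their direction in males (0.472 against 0.416 for the Apoe-high class), and turned in females (1.78 against 1.99).

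Il6st passed for few classes. In females these were 2 of 10, lower in the NeuMo class (42.4 against 54.1 CPM, but 0.884 against 0.560 UMIs per cell) and in the Apoe-high class (38.9 against 51.7 CPM), and in males it was lower in the DCMo class (21.6 against 37.4 CPM). Il4ra passed for 8 of 10 classes in females, lower in the NeuMo class (15.6 against 27.7 CPM) and higher in the DCMo (36.1 against 21.7 CPM), Apoe-high, mature, interferon, immediate early and NF-kB classes. Of these 8 results for Il4ra, 6 had the opposite direction in UMIs per cell, with 0.330 against 0.292 for the NeuMo class. The DCMo class kept its direction (0.323 against 0.293). Bcl3 passed for 6 of 9 classes in females, with the highest level in the NF-kB class (47.1 against 29.2 CPM, log2 difference 0.50 ± 0.30 SD, n = 10, 9 of 10 mice, exact permutation, adjusted p = 0.012) and a lower one in the NeuMo class (22.1 against 36.2 CPM). All 6 had the opposite direction in UMIs per cell, with 0.399 against 0.405 for the NF-kB class, and per cell Bcl3 was highest in the G2/M class (0.572 against 0.362). In males Bcl3 passed for 0 of 8, on at most 111 UMIs in an age group. Cish passed for 1 class, lower with the immediate early genes, at under 1 CPM in and outside the class.

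Socs3 and Bcl3 were not shown to share cells. In females Socs3 was at 9.93 CPM in Bcl3-positive and 7.89 CPM in Bcl3-negative cells of the same mouse, higher in 7 of 10 mice (adjusted p = 0.33, exact permutation), and Bcl3 was at 54.3 CPM in Socs3-positive against 30.0 CPM in Socs3-negative cells, higher in 9 of 10 mice (adjusted p = 0.12, exact permutation). Stat3 was higher in Socs3-positive cells at the depth of the cells (123 against 85.4 CPM, 10 of 10 mice, and 1.27 against 1.08 UMIs per cell). After thinning it was at 111 CPM in both, and the mean log2 difference over the 8 mice with enough cells was -0.39 ± 1.46 SD (exact permutation, adjusted p = 0.85). Only 3.23% of the cells of old and 0.803% of those of young females then held a Socs3 UMI. A mouse entered with as few as 5 such cells, so this value is imprecise and leaves the Stat3 difference at equal depth undecided. Il4ra was higher (27.5 against 22.0 CPM) and Il6ra lower (146 against 162 CPM) in Bcl3-positive cells, each in 10 of 10 mice, at median depths of 11253 and 8896 UMIs per cell. In UMIs per cell Il4ra kept its direction (0.381 against 0.264) and Il6ra turned (1.99 against 1.93).

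**Figure D4:**
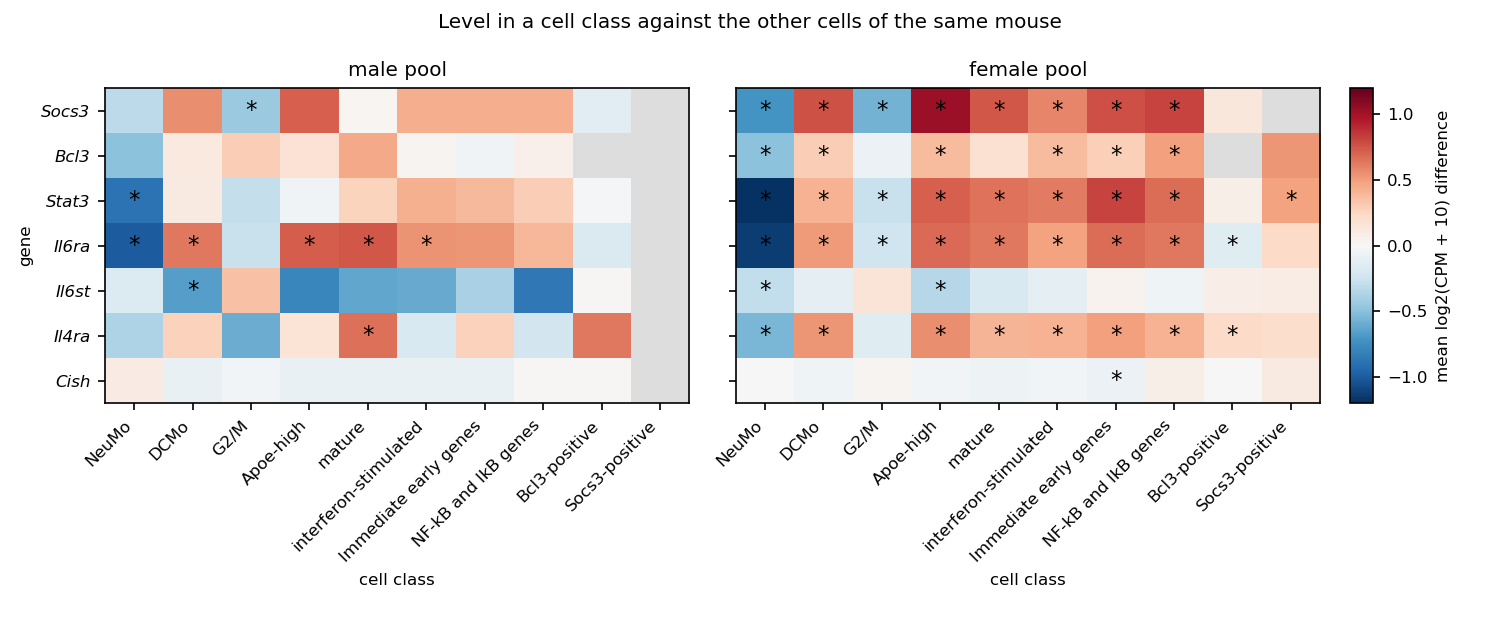
Mean difference in log2(CPM + 10) between a cell class and the other cells of the same mouse (colour scale), for each member (rows) and class (columns) in the male and female pools. Stars mark differences that passed the exact permutation test after adjustment over 130 comparisons, and grey cells were not computed. Stat3 and Il6ra in the NeuMo class (-1.18 and -1.14 in females) and Socs3 in the Apoe-high class (1.03) are the deepest colours.

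Genes of these classes themselves moved with age in females, where 3.45% of all genes were called. Called higher in old mice were 5 of 9 DCMo genes (Cd74, H2-Aa, H2-Ab1, H2-Eb1 and H2-DMb1, of class II antigen presentation). So were 3 of 5 Apoe-high genes (Gngt2, Pla2g7 and Tppp3) and 1 of 7 mature genes (Chil3). Calls in the immediate early and NF-kB lists are given above. The genes that give the DCMo and Apoe-high classes their usual marker or name were not among those called: Cd209a was at 19.9 CPM in old and 39.3 CPM in young females (log2 fold change -1.05, SE 0.33, edgeR adjusted p = 0.10) and Apoe at 325 and 432 CPM (-0.39, SE 0.24, edgeR adjusted p = 0.47). The NeuMo, G2/M and interferon lists gave 0 calls of 8 genes each in females by edgeR, with 0, 1 and 2 genes at an unadjusted p under 0.05. The DCMo list summed to 1744 to 9093 CPM in old and 1123 to 1653 CPM in young females. As a description, the level of Socs3 was set out by age inside and outside each class. Outside the DCMo class it was at 7.83 to 16.3 CPM in old and at 1.70 to 2.65 CPM in young females, and inside it at 18.2 to 47.3 and at 5.07 to 12.7 CPM. Outside the Apoe-high class it was at 6.68 to 16.5 and 1.26 to 2.54 CPM. In the cells outside a class all old females lay above all young females for 8 of 8 lists. Each of these overlapping sets holds most cells of a mouse, so this count largely restates the level in all cells. Socs3 had also been selected on this contrast. Inside the class all old females lay above all young females for 6 of 8 lists. The exceptions were the immediate early gene class, where the lowest old female was at 5.53 CPM and the young mice at 5.56 to 9.11 CPM, and the NeuMo class, where Socs3 was near its floor, at 0.477 to 9.47 CPM in old and 0 to 0.723 CPM in young mice. In the Apoe-high class itself the old females ranged from 31.4 to 71.0 CPM and the young females from 8.34 to 11.5 CPM. Each class is the same share of every mouse's cells, so the part of cell composition in the age difference was not tested.

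**Figure D5:**
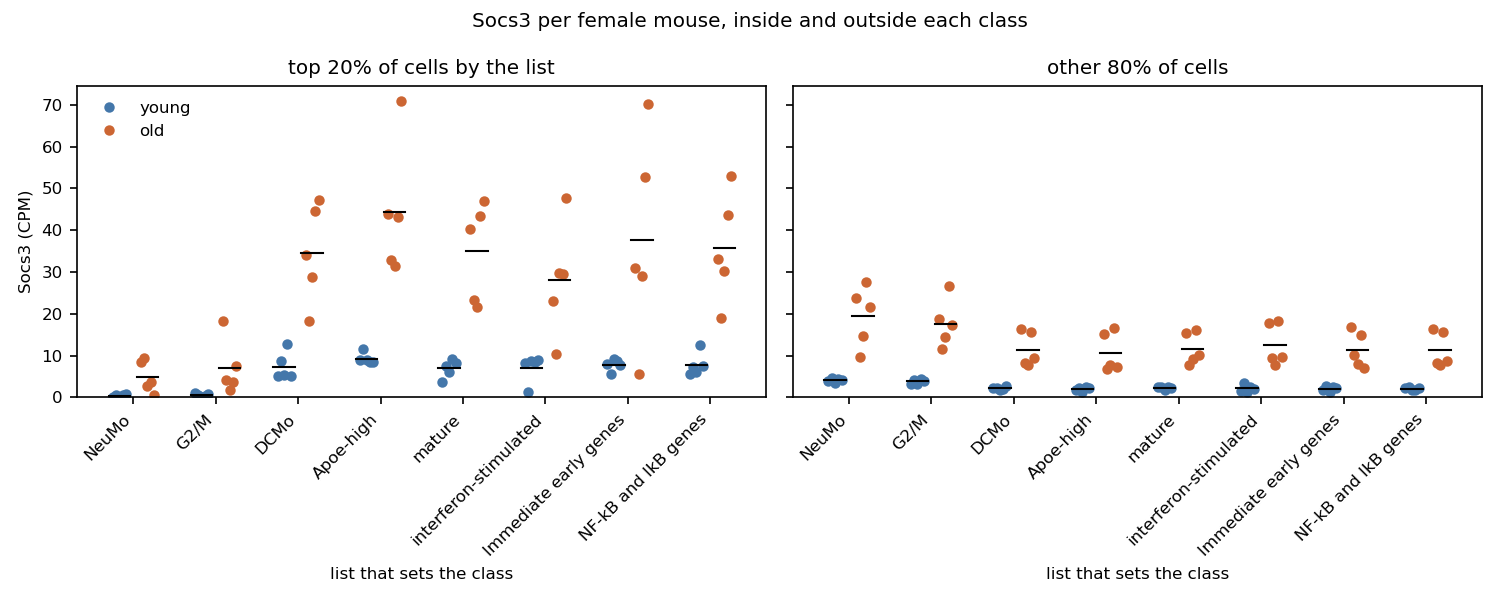
Socs3 level of each female mouse in CPM (vertical axis) in the 20% of its cells highest for a list (left) and in its other 80% (right), for 8 lists (horizontal axis), young and old mice in separate colours. Points are mice and short lines means of 5 mice. Outside every class the old mice lie above the young mice, from 6.68 CPM upward against 4.60 CPM at most.

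Mouse-to-mouse variation within the age groups was used to find genes whose level goes with that of Bcl3. Over 20 mice, with the mean of each sex and age group subtracted from log2 CPM, the 5 of 5650 genes most like Bcl3 were Ddx50 (Pearson's r = 0.81, Spearman's rho = 0.60), Rspry1 (0.81 and 0.73), Spty2d1 (0.80 and 0.71), Cebpa (0.77 and 0.74) and Cul3 (0.77 and 0.59). Without young male 4 and old male 5, which hold 4 and 6 Bcl3 UMIs, r fell to between 0.48 and 0.66. These are correlations of values that share a library and its depth, picked as the highest of many. Socs3 was not tested in both pools, so no gene was compared with it over 20 mice. Over the 10 females alone, a comparison chosen after the data were seen, the gene of 10053 most like Socs3 was Fbxo4 (r = 0.96, rho = 0.93, and r = 0.94 without old females 2 and 3). This too is the highest of many, over 10 mice. Among the members, r with Socs3 was 0.75 for Il4ra, 0.29 for Stat3, 0.21 for Il6ra, -0.19 for Bcl3 and -0.19 for Il6st. Without old females 2 and 3 these values were 0.58, 0.49, 0.55, 0.14 and -0.14, so Il4ra then lay close to Il6ra and Stat3. Of the 5 genes named above for Bcl3, only Rspry1 was again among the 5 most like it in these females.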

How the data were processed

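Single-cell RNA of sorted bone-marrow monocytes was measured in 2 pooled libraries, each of 10 hashtagged mice. The authors made the values with STAR 2.5.1 and Cell Ranger (4.0.0 in their notes, 7.0.0 in the male and 3.1.0 in the female file headers) on mm10, and deposited raw UMI counts per gene and barcode without normalization. The male file held 1227 barcodes, with none at or over 5% mitochondrial UMIs and 0 negative for hashtags. Male cells went to the mouse of their leading hashtag, since HTODemux (Seurat 5.3.0) called 401 of them doublets. These 401 cells stay in the male results, except where HTODemux singlets are named. Female cells were HTODemux singlets (doublets and negatives removed) with over 200 genes and under 5% mitochondrial UMIs, given to their leading hashtag, with 5 ties left out. The pools shared 0 barcodes. Library depth limits each value, and floors (3 counts of the total) cover counting error only.

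Counts were summed per mouse. Age was tested separately in males and females by edgeR 4.0.16 (quasi-likelihood, filterByExpr, then TMM), two-sided, with Benjamini-Hochberg adjustment at 0.05, and the interaction was fitted over 20 mice. The SE of an edgeR log2 fold change was derived from the test, as the size of the fold change divided by the square root of the F statistic. DESeq2 1.42.0 was an alternative. Scripts were tested on simulated data. Class comparisons used exact sign-flip permutations and a pseudocount of 10 CPM, with at least 5 cells on each side in a mouse. The genes named were the 7 members, every list gene called in either pool, for a list with none its most abundant gene, and the 5 genes most like Bcl3. Of the called list genes 1 is not reported here. The members and lists were chosen with earlier results of these data known. Alternatives were DESeq2, no count filter, other cell assignments, each mouse left out, the top 10% of cells, a pseudocount of 50 CPM and thinning to 2000 UMIs. Cells under 2000 UMIs were left out of the thinned values. Removal of cells with neutrophil UMIs, the female likeness and the surface antibodies were added after seeing the data. Positions came from GENCODE vM21 and promoters from RefSeq, both of GRCm38, and the release may differ from that used for counting.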

Additional observations from a re-analysis of the deposited data

Results flagged for a closer look

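For the 7 members, CPM and the share of positive cells were checked in each of the 4 groups of 5 mice, 56 groups of values in all, and 4 held a mouse far from the others of its group, where chance gives about 1 in 20. Old male 3 had the lowest Il6ra, at 50.3 CPM, while the other old males were at 71.9 to 79.1 CPM. Young male 1 was the only young male with Cish, at 2.18 CPM and in 1.13% of its cells, on 2 UMIs. Old female 1 had the highest share of Stat3-positive cells, 75.7%, and the lowest of its group was at 67.2%.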

How the results depend on the processing

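In males the count of genes called by age was 22 with DESeq2, 95 without the count filter, 3 without cells holding neutrophil UMIs, and 0 to 39 over the removal of single mice (39 without old male 1 and 24 without old male 4), against 0. The count of list genes in males became 3, 7 and 0 to 2. In females 542 genes were called with the leading hashtag of every barcode, 389 with DESeq2, and 189 to 526 without single mice (526 without old female 4, 189 to 222 without young female 1, 2, 4 or 5), against 347. List genes in females stayed at 16 to 24 without single mice. The interaction was called for 5 genes without the filter, 1 with HTODemux singlets and 1 to 3 without single mice. Bcl3 was called in males without the filter and without old male 1 or 4, and Stat3 in females with DESeq2, without the filter and without old female 5. Il6ra was called lower in old females (-0.19) with the leading hashtag of every barcode. As the members were selected on this contrast, these calls of members only say how they rank against the cutoff. Il4ra in males ranged from -0.13 to 0.54 on the log2 scale without single mice, Stat3 from -0.04 to 0.24 and Il6st from -0.24 to 0.02, while Il6st in females ranged from -0.06 to 0.04. Socs3 in females ranged from 2.14 to 2.43 and was 1.61 with the leading hashtag of every barcode. Of the cell class comparisons 16 of 124 passed after thinning to 2000 UMIs, where counts are fewer, and 49 to 54 of 130 without single mice. After thinning, 2 class results turned, Il4ra in the mature class of males (-0.15) and Stat3 in Socs3-positive cells of females (-0.39, on few positive cells). A further 34 of 52 kept their direction without passing. No paired analysis was possible because the mouse numbers only name mice. Depth limits Socs3 and Cish in males, which rest on at most 13 UMIs in an age group.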

Other observations

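The female library also carried antibodies to 6 surface proteins, which were compared between positive and negative cells of the same mouse on log2(UMIs + 1), in 18 comparisons chosen after the data were seen. CD11b, an integrin chain of myeloid cells, was higher on Socs3-positive than on Socs3-negative cells in 10 of 10 mice (difference 0.43 ± 0.21 SD, exact permutation, adjusted p = 0.018). Ly6C was higher on Il4ra-positive cells in 10 of 10 mice (0.11 ± 0.16 SD, adjusted p = 0.018, exact permutation) and on Bcl3-positive cells in 9 of 10 (0.10 ± 0.10 SD, adjusted p = 0.023, exact permutation), and CD115 was higher on Bcl3-positive cells in 9 of 10 (0.16 ± 0.13 SD, adjusted p = 0.044, exact permutation). MHC-II on Socs3-positive cells, at 0.19 ± 0.16 SD, did not pass (adjusted p = 0.056, exact permutation). Bcl3-positive cells were deeper in RNA than Bcl3-negative cells and Socs3-positive cells were not (8650 against 9408 median UMIs per cell), and the part of cell depth in the antibody differences was not tested.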
